A study of Schmidtea mediterranea with 24 samples.

Results

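The transcript described here is smedwi-1 of the planarian Schmidtea mediterranea, a freshwater flatworm. It was found by its identifier, dd_Smed_v6_659_0_1, which is 1 of the 28742 rows of the deposited count table. No other row shares the component number in that identifier. The count table holds identifiers only, so the gene name rests on the identifier and could not be checked against a sequence. Lists of other stem cell, progenitor and tissue markers could not be applied for the same reason, and the labelled tissue was not checked against its markers.

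smedwi-1 encodes a protein of the PIWI family, the Argonaute proteins that bind the small RNAs called piRNAs and, in animal germ cells, silence transposable elements. In planarians the gene is switched on in neoblasts, the dividing stem cells from which every lost tissue is rebuilt. Its RNA is widely used as a marker of these cells, and it is lost when they are killed by irradiation. The animals were asexual worms of the clonal line CIW4.

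The study asked which transcripts respond to extracellular vesicles (EVs), small membrane-bound particles that cells release. All animals were wild type and had gone without food for 7 days. In 1 group, tails received EVs prepared from body fragments 12 hours after amputation, at about 1 animal's EVs per worm, mixed with a fluorescent dextran. In the buffer-injected group the same dextran was given in buffer alone, and the control group was not injected. Injected worms with low dextran content after 1 hour of recovery were dropped, and uninjected worms passed through no such selection. RNA came from the tail behind the pharynx without about 10% at the tip, 24 hours after injection, with 5 tail pieces pooled per replicate and 4 biological replicates per group. The 24 sequencing samples are 12 libraries read in 2 runs each, and the runs of a library were added together. Library totals ran from 19621187 to 30903133 counts, with 12565524 to 19289688 in run 1 and 7055663 to 11613445 in run 2.

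smedwi-1 was abundant in all 12 libraries, and how level it was depended on the scaling, as given below. The uninjected libraries, replicates 1 to 4, held 17961, 18846, 16356 and 12816 of its counts. The buffer-injected libraries held 15284, 16982, 23677 and 16433, and the EV-injected libraries 17293, 19351, 16619 and 17636. The smallest and largest of these counts came from the libraries with the smallest and largest totals, uninjected replicate 4 and buffer-injected replicate 3. In all, 209254 counts fell on smedwi-1, 0.0723% of every count in the series.

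Levels were set on a common scale as counts per 1000000 counts (CPM), with library totals adjusted by the TMM method, which aligns the bulk of transcripts between libraries. smedwi-1 then stood at 728, 696, 704 and 682 CPM in uninjected replicates 1 to 4. It stood at 699, 728, 767 and 697 CPM in buffer-injected tails and at 725, 732, 757 and 745 CPM in EV-injected tails. All 12 values lay within a factor of 1.12 of each other, and the groups overlapped. Group means were 702 ± 19.2 CPM without injection, 723 ± 32.8 CPM with buffer and 740 ± 14.1 CPM with EVs (SD, n = 4 each). On this scale the means of neighbouring groups in this order, uninjected and buffer or buffer and EVs, lay closer together than the larger SD of the pair. The outer pair, uninjected and EV-injected, met only at its edge. Uninjected replicate 1, at 728 CPM, lay above EV-injected replicate 1, at 725 CPM, and the other uninjected libraries lay below all 4 EV-injected ones.

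**Figure D1:**
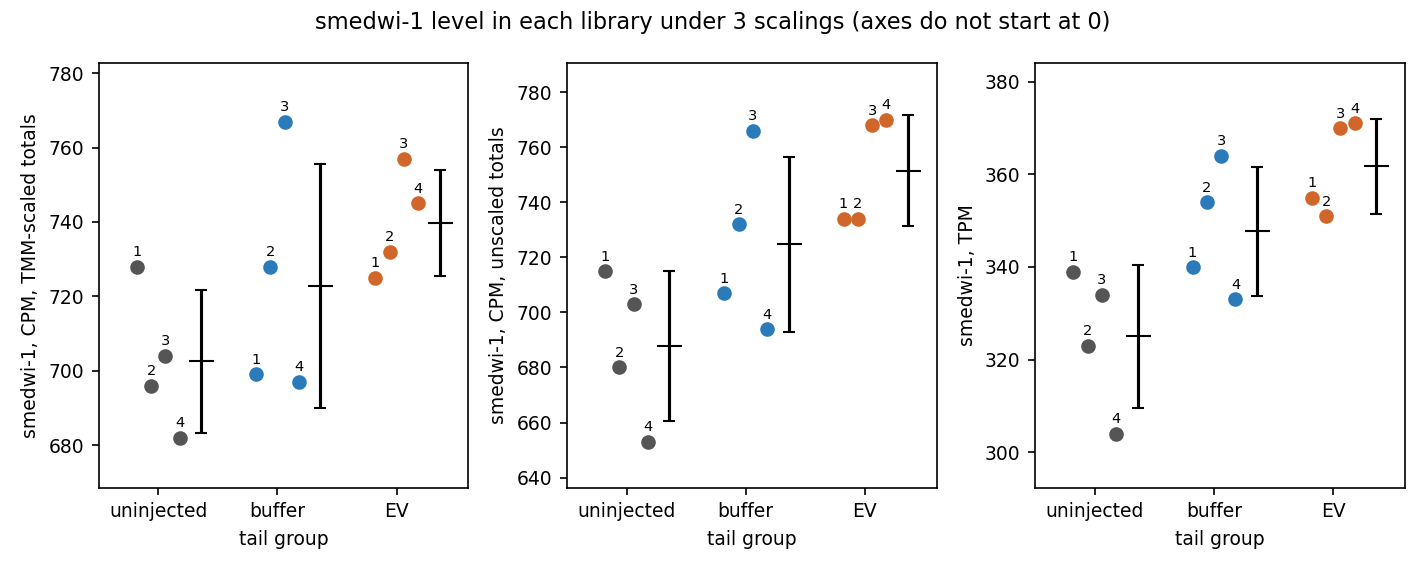
Level of smedwi-1 in each library, by tail group, as CPM with TMM-scaled totals (left), as CPM with unscaled totals (middle) and as TPM (right). Points are libraries with their replicate numbers, the horizontal mark is the group mean and the bar 1 SD, and the axes do not start at 0. The group means run in the same order in all 3 panels, but the uninjected and EV-injected libraries overlap only in the left one, where they meet near 728 and 725 CPM.

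Between different transcripts a level can be compared only per length. The smedwi-1 transcript is 2618 bases long, longer than 91.3% of the transcripts listed. Per kilobase it reached 268 ± 7.33 RPKM without injection, 276 ± 12.5 RPKM with buffer and 283 ± 5.4 RPKM with EVs (SD, n = 4 each; RPKM is CPM divided by the transcript length in kilobases). On this per-length level it ranked between 412 and 473 of 28742 transcripts in every library. This is the 98.4th to 98.6th percentile, whatever the treatment. The rank was 433 to 473 without injection, 412 to 470 with buffer and 422 to 446 with EVs, and these ranges overlapped.

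The measurement was precise. Counting alone contributes an error of 0.650% to 0.883% of the level per library. As an example, the 12816 counts of uninjected replicate 4, its smallest value, are 653 CPM of the unscaled library total, with an exact 95% binomial interval of 642 to 665 that covers counting error only. The coefficient of variation between replicates was 2.73% without injection, 4.54% with buffer and 1.91% with EVs, against a median of 9.11%, 9.46% and 9.46% over the 21149 transcripts tested. Over the 3 groups its mean was 3.06%, and 4.00% of tested transcripts had a lower one. Among the 1846 transcripts with a mean of at least 100 CPM, 21.7% had a lower one and the median was 4.2%. In the buffer group, replicate 3 lay highest, at 767 CPM against 697 to 728 CPM in the others. The labels call the pools biological replicates without saying how they were set up, so p-values here refer to variation between these pools. edgeR draws the spread of each transcript toward that of other transcripts. For smedwi-1 its estimate was 5.20%, above the 3.06% seen between its own replicates. The SE, intervals and p-values from edgeR thus rest on a spread moderated over transcripts, which the exact permutation tests do not use.

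**Figure D2:**
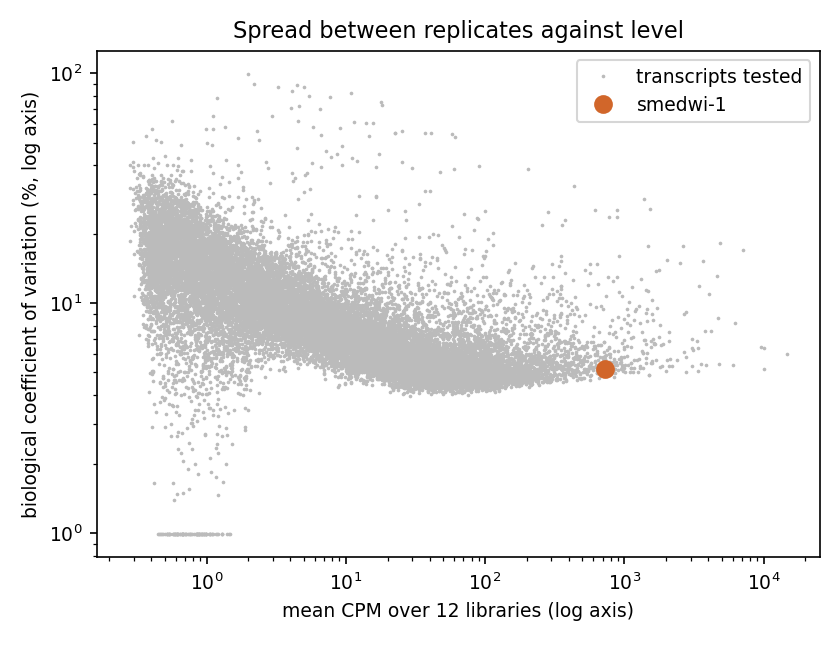
Biological coefficient of variation against mean CPM over 12 libraries, both on log axes, for each transcript tested (grey) and for smedwi-1 (orange). The coefficient is edgeR's estimate of spread between replicates beyond counting noise, drawn toward that of other transcripts of similar level. smedwi-1 lies at 722 CPM and 5.20%, and 15.4% of all tested transcripts have a lower coefficient. Its coefficient of variation observed within groups was lower, 3.06%.

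Both sequencing runs gave the same picture. smedwi-1 took 60.7% to 64.0% of its counts from run 1, and the libraries as a whole took 60.3% to 64.0% of theirs. Scaled within its own run, its level differed between the runs of a library by 1.37% on average and by 3.02% at most. The largest gap between libraries of a group, 767 against 697 CPM with buffer, was present in both runs, at 770 against 699 CPM in run 1 and 761 against 691 CPM in run 2. These runs reread the same libraries, so they show the error of sequencing and not that between animals.

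Buffer-injected and uninjected tails were compared first, for the effect of injecting without EVs. smedwi-1 stood 2.90% above uninjected tails, with a 95% interval of −3.47% to 9.68%. In edgeR's quasi-likelihood test the log2 fold change was 0.04 ± 0.04 (SE) with an adjusted p of 0.567, so it was not called. In the same test 22.0% of all tested transcripts were called, and 844 of the 1846 with a mean of at least 100 CPM. The size of its change was larger than that of only 14.3% of tested transcripts, and of 16.1% of those with a mean of at least 100 CPM. The median size was 0.16 and 0.13 on the log2 scale in these sets. Of the 4 buffer-injected libraries, 2 lay above the uninjected mean and 2 below it. The groups overlapped, whereas for 23.8% of tested transcripts they did not, and an exact permutation test of log2 CPM (two-sided, n = 4 each) gave p = 0.343, adjusted p = 0.371 over 3 comparisons. The fold change was 0.01 on the log2 scale without buffer-injected replicate 3, 0.02 with run 2 alone and 0.08 with unscaled totals, each time uncalled. As TPM, smedwi-1 stood 7.07% higher with buffer, at 348 ± 14.2 against 325 ± 15.3 TPM (SD, n = 4 each), and the libraries overlapped. The exact permutation p on that scale was 0.0857, adjusted p = 0.129 over 3 comparisons.

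For EVs and injection combined, read as EV-injected against uninjected tails, the answer for smedwi-1 depended on the scaling. With TMM scaling it stood 5.34% higher, with a 95% interval of −1.18% to 12.3%. The log2 fold change was 0.07 ± 0.04 (SE), with an edgeR adjusted p of 0.237, where 25.8% of tested transcripts, and 979 of the 1846 with a mean of at least 100 CPM, were called. All 4 EV-injected libraries lay above the uninjected mean, and 3 of them above every uninjected library. The exact permutation p was 0.0571 (two-sided, n = 4 each), where 0.0286 is the smallest possible, with an adjusted p of 0.171 over 3 comparisons. The change exceeded that of 24.1% of tested transcripts in size, and of 27.1% of those with a mean of at least 100 CPM. Levels as a plain share of the library total gave another result. smedwi-1 then stood at 715, 680, 703 and 653 unscaled CPM in uninjected replicates 1 to 4 and at 734, 734, 768 and 770 unscaled CPM in EV-injected ones. These 2 sets of values did not overlap, and with unscaled totals edgeR called the transcript, at 9.26% higher with a 95% interval of 2.34% to 16.6% and an adjusted p of 0.0418. The exact permutation p was then 0.0286, the smallest possible, and its adjusted p 0.0857. Only lower p-values in the other comparisons could have brought that adjusted p down. Over all tested transcripts, unscaled totals gave 27.3% called and 27.5% without overlap, and TMM gave 26.4% without overlap. As TPM, smedwi-1 stood 11.4% higher with EVs, at 351 to 371 against 304 to 339 TPM, with the same exact p of 0.0286 and adjusted p of 0.0857. On that scale 28.3% of tested transcripts did not overlap.

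Measures of the libraries moved with that scaling. The 10 most abundant transcripts held 8.88% ± 0.0452 of a library without injection, 7.61% ± 0.128 with buffer and 7.5% ± 0.146 with EVs (SD, n = 4 each). The factors by which TMM adjusted the totals were 0.958 to 1.00 in uninjected, 0.996 to 1.012 in buffer-injected and 1.004 to 1.034 in EV-injected libraries. Without that adjustment the median of all tested transcripts moved up by 0.05 on the log2 scale between EV-injected and uninjected tails. Of the transcripts called in that comparison, 68.6% were then higher with EVs, against 53.8% with TMM, and 66.9% against 56.4% were higher with buffer. For smedwi-1 the change was 0.13 on the log2 scale with unscaled totals, 0.07 with TMM and 0.07 with DESeq2 size factors. With the 10 most abundant transcripts left out of the totals, its level was 755 ± 30.0 CPM without injection and 812 ± 22.6 CPM with EVs (SD, n = 4 each), a difference of 7.67%. These libraries did not overlap either, as for 26.7% of tested transcripts on that scale, and the exact permutation p was 0.0286, adjusted p = 0.0857 over 3 comparisons. The part of single transcripts in the difference between scalings was not tested.

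The direct contrast of both injected groups asks what is due to the EVs themselves. smedwi-1 stood 2.37% higher with EVs than with buffer, with a 95% interval of −3.96% to 9.12%. The log2 fold change was 0.03 ± 0.04 (SE), with an edgeR adjusted p of 0.859. In size it exceeded that of 22.8% of tested transcripts and of 35.6% of those with a mean of at least 100 CPM. Few transcripts were called in this comparison at all, 0.0993% of those tested, with 4 among the 1846 that had a mean of at least 100 CPM. With TMM scaling, all 4 EV-injected libraries lay above the buffer-injected mean. None lay above the highest buffer-injected library, replicate 3 at 767 CPM, or below the lowest, so the EV-injected values fell inside the buffer-injected range. Libraries of these groups did not overlap for 4.90% of tested transcripts. The exact permutation p was 0.371, adjusted p = 0.371 (two-sided, n = 4 each). The log2 fold change was 0.06 without replicate 3 of the buffer group. Leaving out replicate 1 or 4 of that group, or replicate 3 of the EV group, gave 0.02. It was uncalled each time. On other scales the EV-injected libraries reached above the buffer-injected ones but still overlapped them. The highest values were 770 against 766 in unscaled CPM and 371 against 364 in TPM. smedwi-1 stood 3.75% and 4.03% higher with EVs on these scales. On each, the exact permutation p was 0.143, adjusted p = 0.143 over 3 comparisons. With unscaled totals the edgeR adjusted p was 0.746.

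**Figure D3:**
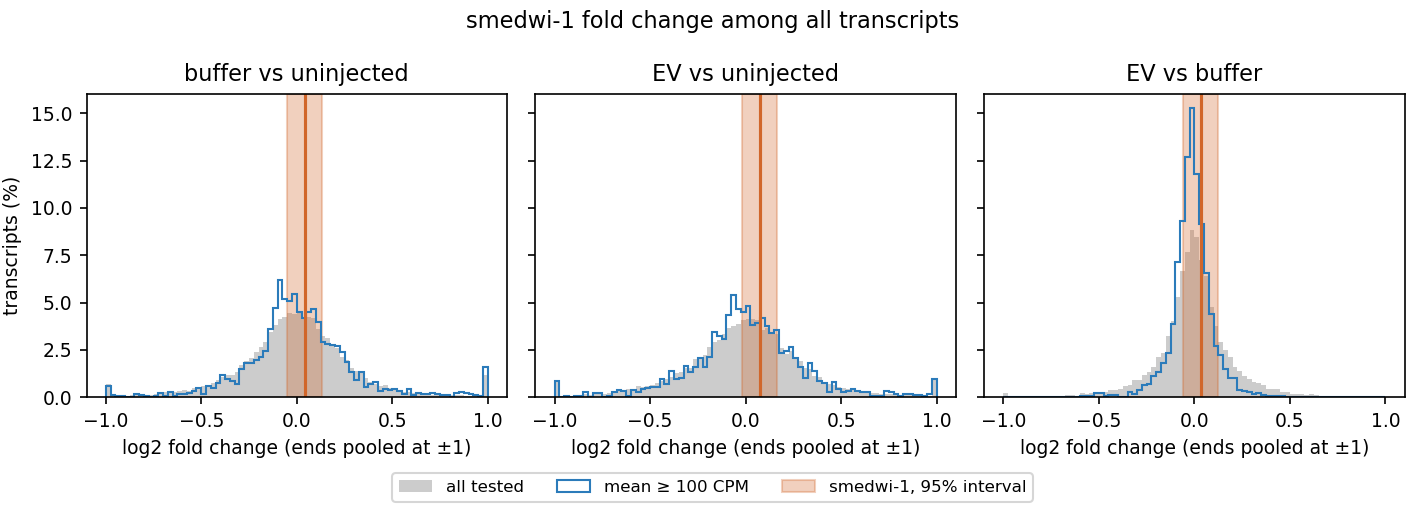
Log2 fold changes in the 3 comparisons for all tested transcripts (grey, as percent of 21149), for those with a mean of at least 100 CPM (blue outline, as percent of 1846) and for smedwi-1 (orange line with its 95% interval as a band). Values beyond 1 in either direction are pooled at the ends. The smedwi-1 line lies slightly right of 0 in each panel and every band includes 0.

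These intervals hold for TMM scaling, and with unscaled totals the one for EV-injected against uninjected tails reached higher and left out 0, as given above. With TMM, the 95% interval reached 0.09 to either side on the log2 scale in each comparison, against a median of 0.22 over all tested transcripts. A narrower interval was found for 1091 transcripts with buffer against uninjected tails, and for 1080 and 1112 in the other comparisons. With its SE, an estimated change of 9.01% between buffer-injected and uninjected tails would have reached the largest unadjusted p among called transcripts, 0.0110. For EV-injected against uninjected tails this was 8.77%. For EVs against buffer, where called transcripts had p of at most 4.45e-05, it was 17.8%. These are sizes of the estimate that just meets the threshold, so a true change near them could be called or missed. In bulk RNA, a change in the number of neoblasts and a change in smedwi-1 RNA per neoblast cannot be told apart, and changes of opposite sign in both would leave the level as it was.

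The authors' deposited table gives smedwi-1 log2 fold changes of 0.04 for buffer-injected against uninjected, 0.07 for EV-injected against uninjected and 0.03 for EV-injected against buffer-injected tails. The false discovery rates in the authors' deposited table are 0.609, 0.262 and 0.843. That table lists 17755 transcripts and comes from the same libraries, so it is no independent evidence. In the edgeR test run here with TMM scaling, smedwi-1 was called in none of the 3 comparisons. The same held for 69.8% of the 21149 transcripts tested here and for 42.0% of those with a mean of at least 100 CPM.

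**Figure D4:**
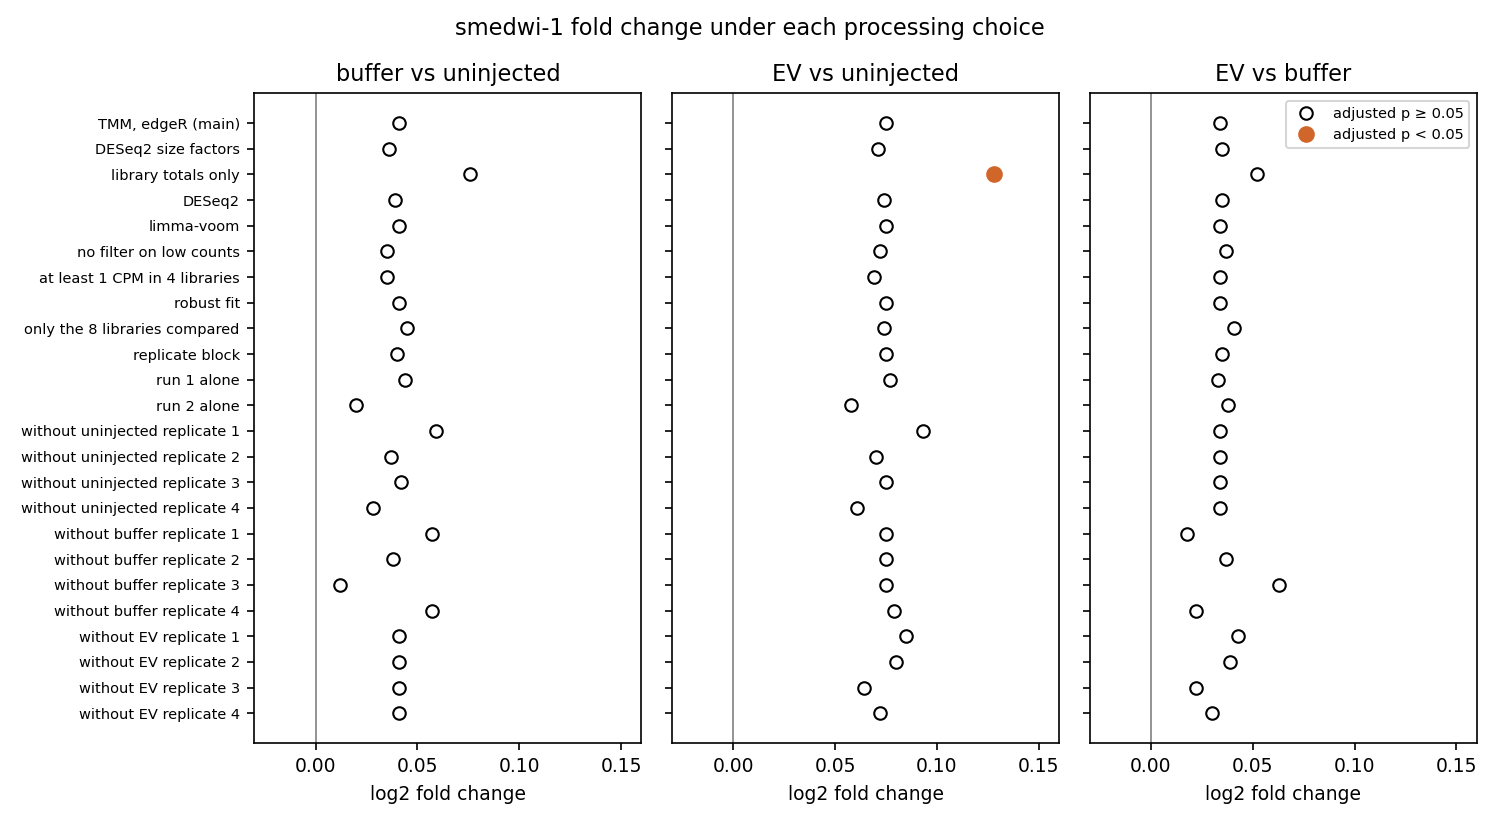
Log2 fold change of smedwi-1 in the 3 comparisons under the main processing and 23 other settings, the last 12 of which leave out 1 library each. Open points have an adjusted p of at least 0.05 and the filled point one below it. All points lie right of 0, and the only filled one is EV-injected against uninjected tails with unscaled library totals, at 0.13.

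Other transcripts were ranked by how closely their level followed that of smedwi-1. The measure was Pearson's r of log2(CPM + 1), over 17251 tested transcripts with a mean of at least 1 CPM. It is given as a description with no p, because the libraries, their scaling and their depth are common to both transcripts and because the closest of so many are high by selection. The middle of the ranking lay at r = 0.02, and 90% of transcripts lay between the 5th percentile of −0.66 and the 95th of 0.64. Values of at least 0.8 were found for 65 transcripts and values of at most −0.8 for 85.

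The closest over all 12 libraries was dd_Smed_v6_3014_0_1, at r = 0.946. It stood at 28.9 ± 1.98 CPM without injection, 30.8 ± 1.98 CPM with buffer and 32.6 ± 1.87 CPM with EVs (SD, n = 4 each). Like smedwi-1 it was highest in buffer-injected replicate 3 within its group, at 33.1 CPM, and lowest of all in uninjected replicate 4, at 27.2 CPM. Its log2 fold change between EV-injected and uninjected tails was 0.17 with an edgeR adjusted p of 0.0479, so this transcript was called there with the TMM scaling under which smedwi-1 was not. A difference between both transcripts in their response was not tested. The likeness was 0.929 to 0.968 with any library left out, 0.947 in run 1 and 0.731 in the shallower run 2. The transcript was chosen on these same libraries and runs, so these values are no independent evidence. Next came dd_Smed_v6_15776_0_1 at r = 0.931, a scarce transcript of 1.74 CPM on average, whose likeness was 0.723 in run 1 and 0.310 in run 2.

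With each group's mean taken away, so that only differences between replicates count, the closest were dd_Smed_v6_12265_0_1 at r = 0.937 and dd_Smed_v6_26527_0_1 at r = 0.925. They averaged 7.40 and 1.87 CPM. The likeness of dd_Smed_v6_12265_0_1 was 0.642 in run 1 alone and 0.721 in run 2 alone, and that of dd_Smed_v6_26527_0_1 was 0.347 and 0.265. Neither transcript was called in any comparison, with edgeR adjusted p from 0.752 to 0.975. By the same measure dd_Smed_v6_3014_0_1 stood at 0.914, with 0.925 in run 1 alone and 0.636 in run 2 alone. The 12 libraries on which it was chosen enter this value too, so it adds no independent evidence. The 100 closest transcripts by the 2 measures had 31 in common. The files give no names for these identifiers.

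**Figure D5:**
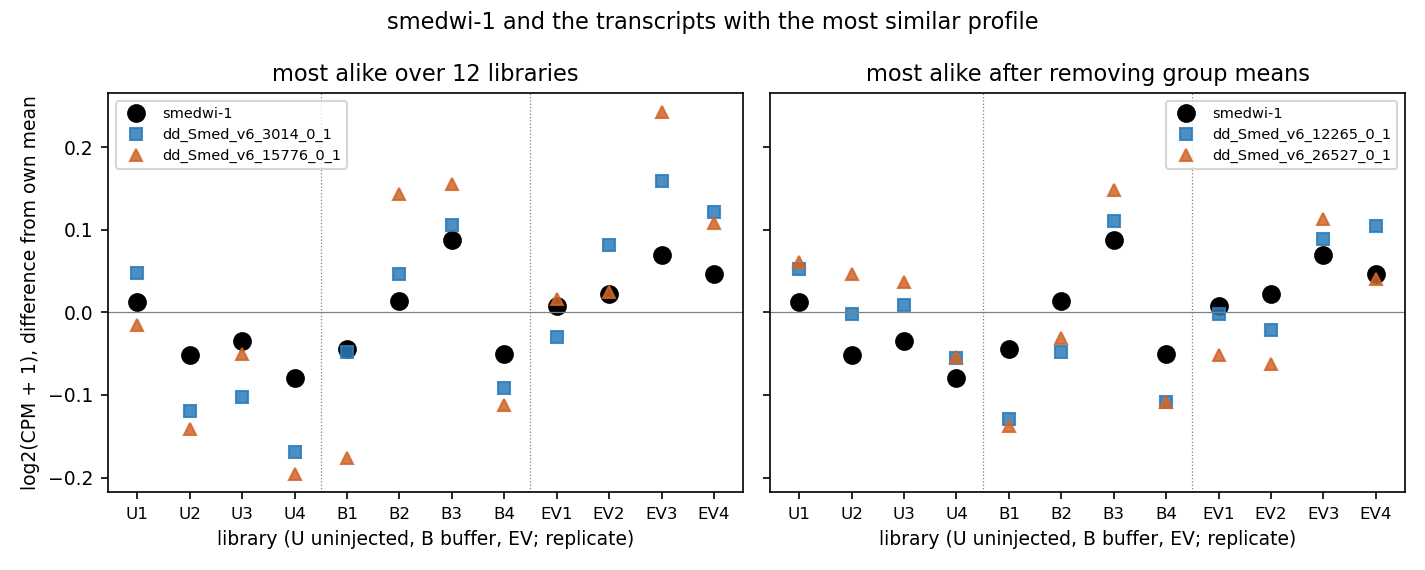
Level of smedwi-1 (black) and of the transcripts most like it, as log2(CPM + 1) minus each transcript's own mean, in the 12 libraries (U, uninjected; B, buffer-injected; EV, EV-injected; number, replicate). On the left are the 2 closest over all libraries, at r = 0.946 and 0.931, and on the right the 2 closest after group means are removed, at r = 0.937 and 0.925; smedwi-1 itself moves over the narrowest range.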

How the data were processed

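RNA was sequenced as pairs of 150 bases from poly-A selected libraries, per the labels' protocols. The authors deposited raw counts per transcript, per run and for both runs. Per the submitters' processing notes and the design text, they used FastQC 0.11.5, BBDuk, Bowtie2 2.3.1, featureCounts of Subread 1.6.3 and edgeR 4.0.16. The sources used here give neither the strand setting nor the handling of multi-mapping reads, so counts of related PIWI transcripts could be shared. The authors' deposited table holds log2 fold changes, an F score and p-values per the file headers.

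Runs were summed per library, and the sums equalled the deposited merged counts in all 344904 cells. Mean chi-square per transcript was 1.49 to 1.95 between runs and 4.83 to 21.5 between libraries of a group, so no library was counted as a repeat. The test was edgeR 4.0.16 in R 4.3.3 on all 12 libraries (filterByExpr, TMM, quasi-likelihood F test, Benjamini-Hochberg over 21149 transcripts, called under 0.05), with SE from the F statistic. The test was also run on simulated data, with changes larger than those estimated for smedwi-1. That run does not cover changes of its size. CPM, RPKM, TPM and exact permutation tests were computed from the counts. Named transcripts are smedwi-1, rows sharing its component number, the 2 most like it over 12 libraries and the 2 most like it within groups. The gene and the tests were chosen with earlier results of these data known. Alternatives were DESeq2 1.42.0, limma 3.58.1 (voom), 2 other scalings, 2 filters, a robust fit, 8 libraries only, a replicate block, each run and each library left out. Unscaled CPM, TPM in permutation tests, totals without the 10 most abundant transcripts, and likeness by run and with a library left out were added after seeing the data. Figures used matplotlib 3.10.9.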

Additional observations from a re-analysis of the deposited data

How the results depend on the processing

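The other settings refit the same 12 libraries, so their results are not independent of each other. Some leave out a library of the group not compared, which moved the estimate little. The log2 fold changes of smedwi-1 were above 0 in all 69 fits under other settings and were uncalled in 68. The exception was unscaled library totals between EV-injected and uninjected tails, 0.128 with an edgeR adjusted p of 0.0418, where the range over that comparison's settings was 0.0418 to 0.439. Unscaled totals leave in place the difference that TMM takes out. With a library left out, changes were 0.012 to 0.059 with buffer against uninjected tails, 0.061 to 0.093 with EVs against uninjected tails and 0.018 to 0.063 with EVs against buffer. As TPM, on which edgeR was not run and which has another denominator, the level was 325 without injection, 348 with buffer and 362 with EVs. Calls over all transcripts for EVs against buffer, 21 in the main test, were 133 with DESeq2, 45 with a robust fit, 39 with the replicate block, 8 with run 2 alone and 6 with only the 8 libraries compared. Of those calls with unscaled totals, 65.2% were higher with EVs, against 42.9% with TMM. With a library left out they were 0 to 51 in edgeR. The count of 0 came without EV-injected replicate 1 or 3, with 1933 and 1798 transcripts at an unadjusted p under 0.05 and no other tool run. Calls against uninjected tails were 2993 with buffer and 3537 with EVs in run 2 alone, which is shallower, and 3773 to 4654 and 4554 to 5478 with a library left out. The causes of these shifts between settings were not tested. The main test did not treat libraries as paired by replicate number, and the labels do not say whether equal numbers mark a shared setup. Deviations of same-numbered libraries correlated at −0.0223 to 0.204. Of the 12 libraries, 6 had their best partner under their own number, where 3 are expected from the number of partners. Whether same-numbered libraries vary together was not tested. The block gave smedwi-1 changes of 0.04, 0.075 and 0.035. Counting error was at most 0.883% of the smedwi-1 level in a library, below the 1.91% to 4.54% between replicates of a group.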

Other observations

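Both injected groups were also averaged, a contrast chosen after the values were seen. Their mean smedwi-1 level stood 4.11% above uninjected tails, with a 95% interval of −1.51% to 10.0%. The log2 fold change was 0.06 ± 0.04 (SE), with an edgeR adjusted p of 0.285, in a comparison that called 28.5% of 21149 transcripts. Of the 8 injected libraries, 6 lay above the uninjected mean. Buffer-injected replicate 3 was highest in smedwi-1 under TMM scaling and was also the library with the largest total.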
